A study of Mus musculus with 12 samples.

Results

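The 10 genes described here are Atf4 and 9 genes of the integrated stress response: Atf5, Ddit3, Ppp1r15a, Trib3, Chac1, Asns, Psat1, Sesn2 and Vldlr. They were picked by gene symbol from the 10 names of a fixed list, out of 27503 genes in the deposited table, and all 10 were present. The libraries came from B16F10 cells, a mouse melanoma line that is pigmented and grows as tumours in C57BL/6 mice. All samples are whole-culture poly(A) RNA-seq libraries of this 1 line. The 4 groups were cells with the IRF7-C435A mutant given IFNα, the same mutant under the control condition, wild-type cells given IFNα, and wild-type cells under the control condition, with 3 libraries each and 12 in all. IRF7 is a transcription factor of the interferon response, and C435A replaces a cysteine of it with alanine; the series title ties S-nitrosylation of IRF7 to NOS1. The dose and duration of IFNα, how the mutation was introduced and whether the mutant cells were 1 clone are not stated in the labels. Nothing in the labels says that the 3 libraries of a group came from separate cultures, so p-values measure the spread between these libraries, which may be technical.

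In the integrated stress response, kinases that sense misfolded protein, amino acid shortage, double-stranded RNA or haem shortage phosphorylate the translation factor eIF2α. Overall protein synthesis then falls, while the Atf4 mRNA, which carries short upstream reading frames, is translated more. The ATF4 protein binds with C/EBP family partners to composite elements near genes for amino acid synthesis, transport and stress signalling. Because ATF4 is controlled largely at translation, an mRNA level of Atf4 does not report its protein.

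Promoter windows of 5 members are shown because the comparisons below turn on Ppp1r15a, Ddit3, Trib3 and Chac1, while Asns, whose promoter carries a well-studied ATF4 site, serves as the contrast. The windows are from RefSeq on GRCm38.p6 and run from 250 bases before to 50 bases after the annotated start, 300 bases in all, 5′ to 3′ on the gene's strand. They lie at chr7:45526219-45526518 (minus strand, Ppp1r15a), chr10:127290543-127290842 (plus strand, Ddit3), chr2:152344011-152344310 (minus strand, Trib3), chr2:119350992-119351291 (plus strand, Chac1) and chr6:7693160-7693459 (minus strand, Asns). Capitals mark matches, on either strand, to any of 4 motifs: TGATGNAA, the core of the C/EBP-ATF composite element; TGACGTCA, the cAMP response element; TGANTCA, the AP-1 element; and a pair of GAAA repeats with any 2 bases between them, the core of the interferon-stimulated response element. None of the marked matches overlaps another.
Ppp1r15a: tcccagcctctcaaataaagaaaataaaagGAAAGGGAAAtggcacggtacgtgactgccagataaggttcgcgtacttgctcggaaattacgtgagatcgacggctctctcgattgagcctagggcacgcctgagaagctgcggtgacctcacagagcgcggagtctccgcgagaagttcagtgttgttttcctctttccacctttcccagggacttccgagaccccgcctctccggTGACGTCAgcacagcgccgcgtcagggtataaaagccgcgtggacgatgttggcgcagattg
Ddit3: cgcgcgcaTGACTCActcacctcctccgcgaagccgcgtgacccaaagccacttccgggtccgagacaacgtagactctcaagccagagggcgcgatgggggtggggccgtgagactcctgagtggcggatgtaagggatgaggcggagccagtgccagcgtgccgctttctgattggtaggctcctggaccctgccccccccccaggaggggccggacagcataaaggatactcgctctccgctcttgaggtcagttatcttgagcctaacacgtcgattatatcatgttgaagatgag
Trib3: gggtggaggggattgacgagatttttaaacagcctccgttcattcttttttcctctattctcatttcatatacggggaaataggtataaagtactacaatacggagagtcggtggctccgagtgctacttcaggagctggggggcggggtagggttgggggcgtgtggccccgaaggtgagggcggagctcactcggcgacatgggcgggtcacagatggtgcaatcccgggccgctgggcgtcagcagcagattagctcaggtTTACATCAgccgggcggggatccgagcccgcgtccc
Chac1: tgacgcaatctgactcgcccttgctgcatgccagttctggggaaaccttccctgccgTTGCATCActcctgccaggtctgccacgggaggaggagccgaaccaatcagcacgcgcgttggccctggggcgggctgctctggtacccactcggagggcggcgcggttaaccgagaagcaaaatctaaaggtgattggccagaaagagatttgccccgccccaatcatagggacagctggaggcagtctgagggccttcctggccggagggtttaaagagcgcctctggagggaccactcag
Asns: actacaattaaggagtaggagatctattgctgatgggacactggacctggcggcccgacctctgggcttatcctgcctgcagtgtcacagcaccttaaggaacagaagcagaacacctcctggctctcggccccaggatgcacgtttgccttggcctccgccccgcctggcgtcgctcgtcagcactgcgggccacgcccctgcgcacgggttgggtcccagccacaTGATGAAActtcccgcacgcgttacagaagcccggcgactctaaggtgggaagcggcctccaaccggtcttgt

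All 10 members had at least 1 window and 3 had a pair, which made 13 windows. TGATGNAA was found in Chac1 (bases 58 to 65, as TTGCATCA on the printed strand), Trib3 (bases 265 to 272, as TTACATCA), Asns (bases 228 to 235, as TGATGAAA) and 1 window of Vldlr, so in 4 of the 13 windows, against 3.97% of all 32851 windows. TGACGTCA was found in Ppp1r15a alone among the members (bases 239 to 246), and in 1.79% of all windows. TGANTCA was found in Ddit3 alone among the members (bases 9 to 15), and in 7.81% of all windows. The GAAA pair was found in Ppp1r15a (bases 31 to 40) and Vldlr, and in 3.44% of all windows. A match describes the letters and is not a binding site, and sites outside these windows were not searched.

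Library totals ran from 60511573 to 75927461 counts, and the 9 members other than Vldlr had at least 2022 counts in every library. Irf7 itself averaged 5.52 ± 1.48 FPKM in mutant IFNα, 4.87 ± 0.392 FPKM in mutant control, 9.05 ± 0.734 FPKM in wild-type IFNα and 12.3 ± 0.611 FPKM in wild-type control libraries (SD, n = 3 each), and was lower in the mutant under the control condition (log2 fold change -1.23 ± 0.17 SE, adjusted p = 0.0057, edgeR). With IFNα the mutant had -0.62 ± 0.17 (SE, adjusted p = 0.113, edgeR). With IFNα against control, Irf7 was lower in all wild-type libraries (-0.45 ± 0.17 SE, adjusted p = 0.798, edgeR). In mutant cells these groups overlapped (0.16 ± 0.17 SE, adjusted p = 0.791, edgeR). Irf7 mRNA thus showed no rise past the threshold with IFNα in either IRF7 form. Melanocyte markers summed to between 7021 and 9374 CPM (counts scaled to library size) in the 12 libraries. In mutant against wild-type cells with IFNα, 6 of the 7 melanocyte markers had a negative log2 fold change, with a median of -0.32 and none past the threshold. Under the control condition all 7 were negative, with a median of -0.16 and none past the threshold. Of genes with a mean of at least 5 FPKM, 55.2% were positive with IFNα and 50% under the control condition. Transcripts of lung epithelium stood apart: 7 lung markers summed to 39.4 to 60.8 CPM in 8 libraries (1 of 3 mutant IFNα, 3 of 3 mutant control, 3 of 3 wild-type IFNα and 1 of 3 wild-type control) and to 0.822 to 0.913 CPM in the other 4. In bulk RNA, more cells of a type and more RNA per cell cannot be told apart. The part of the lung transcripts in the results was not tested directly, and log2 fold changes from the 8 libraries alone are given for some members.

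Summed leukocyte markers also differed in level between groups. The 8 markers summed to 77.3 to 108 CPM in mutant IFNα, 127 to 142 CPM in mutant control, 74.7 to 111 CPM in wild-type IFNα and 79.9 to 117 CPM in wild-type control libraries, so the mutant control libraries lay above all others. The T cell marker Cd3e was at 0 in 9 libraries. Of the 6 leukocyte markers tested, none passed in edgeR in any comparison, where 0% to 0.597% of 17590 genes passed. Lyz2 had the highest counts of the 8 markers, at 2268 to 4973 per library. All 6 had a positive log2 fold change in mutant against wild-type cells under the control condition. They ran from Cd68 at 0.01 ± 0.17 (SE) to Lyz2 at 0.84 ± 0.26 (SE, unadjusted p = 0.00572, edgeR). With IFNα, 5 of 6 were positive in mutant against wild-type cells, with Csf1r at 0.60 ± 0.18 (SE, unadjusted p = 0.00461, edgeR). There Lyz2 was the negative one, at -0.44 ± 0.26 (SE). With IFNα against control in mutant cells, 4 of 6 were negative, with Lyz2 at -0.88 ± 0.26 (SE, unadjusted p = 0.00454, edgeR). In wild-type cells 5 of 6 were negative, and Lyz2 was positive at 0.40 ± 0.26 (SE). Of genes with a mean of at least 5 FPKM, 50%, 55.2%, 52% and 49.1% were positive in these comparisons, in the order given. Fibroblast and endothelial markers summed to 2.47 to 12.4, 5.86 to 8.89, 6.62 to 7.88 and 2.45 to 7.50 CPM in mutant IFNα, mutant control, wild-type IFNα and wild-type control libraries. The part of the leukocyte, fibroblast and endothelial transcripts in the results for Ddit3, Ppp1r15a, Trib3 and Chac1 was not tested.

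The members were expressed at very different levels (FPKM, a unit that corrects for gene length and library size). Atf4 averaged 158 ± 27.1, 142 ± 6.36, 150 ± 16.9 and 139 ± 14.6 FPKM in mutant IFNα, mutant control, wild-type IFNα and wild-type control libraries (SD, n = 3 each). Ddit3 averaged 96.8 to 172 FPKM over the groups, Asns and Atf5 averaged 86.0 to 99.6 FPKM over the groups, and Trib3, Chac1 and Psat1 44.1 to 74.4 FPKM. Ppp1r15a averaged 16.3 to 26.4 FPKM and Sesn2 9.85 to 11.5 FPKM. Vldlr, the very low density lipoprotein receptor, had 0, 0 and 14 counts in mutant IFNα, 20, 16 and 14 in mutant control, 0, 0 and 0 in wild-type IFNα, and 15, 0 and 23 in wild-type control libraries. Such counts are near the limit of detection, so no fold change is given for Vldlr and the summaries below cover the other 9 members.

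**Figure D1:**
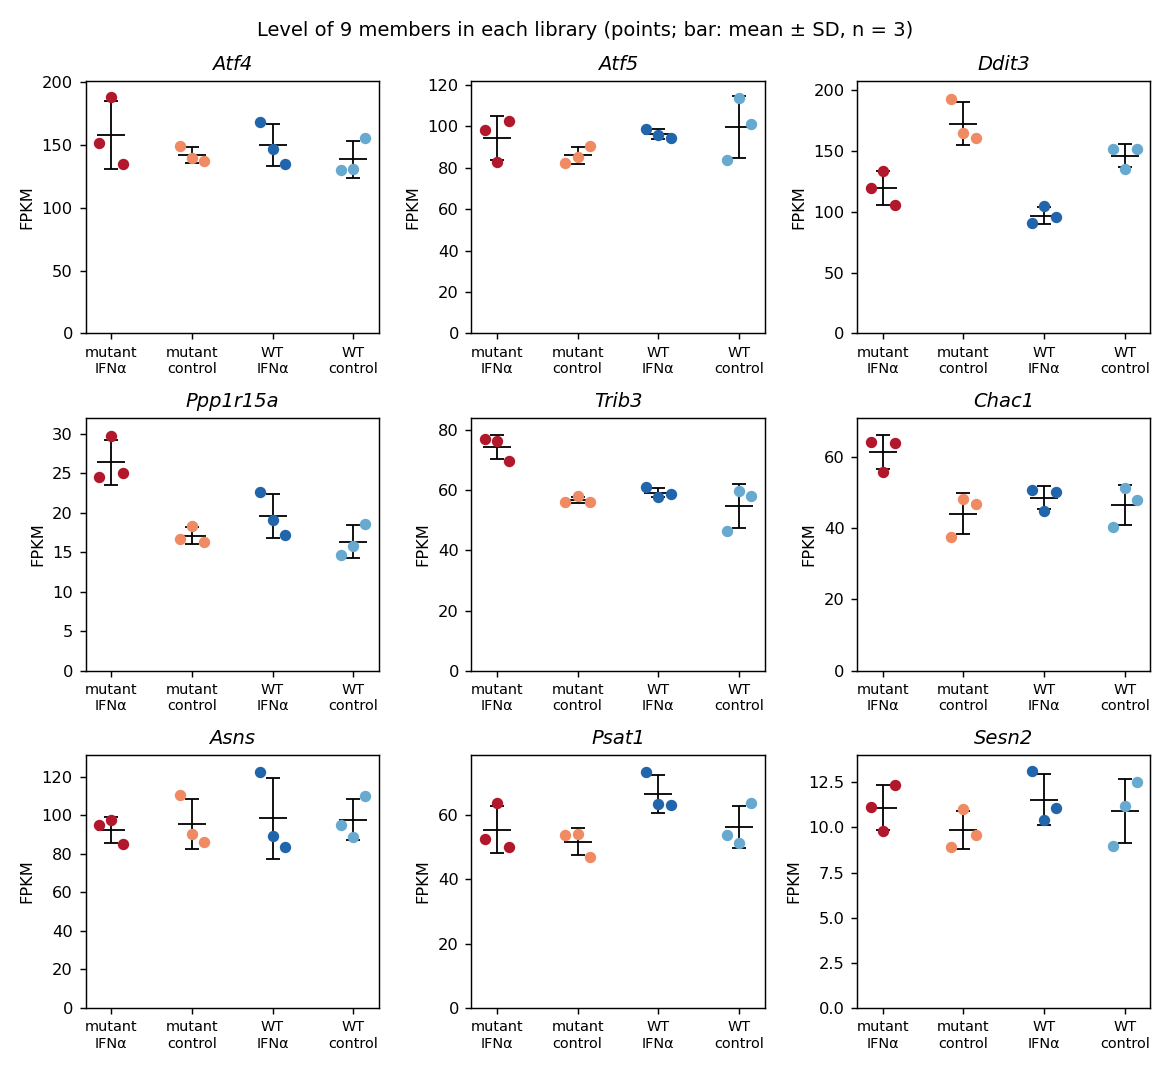
FPKM (vertical axis, starting at 0) of 9 members in each of the 12 libraries, by group; points are libraries and the bar is the mean ± SD (n = 3). In Ppp1r15a, Trib3 and Chac1 the 3 mutant IFNα libraries lie above all others, and in Ddit3 the IFNα libraries lie below the control libraries of the same IRF7 form.

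With IFNα, Ppp1r15a was higher in mutant than in wild-type cells, and it was the only one of the 9 members past the threshold of an adjusted p of 0.05 in edgeR's quasi-likelihood test, where 0.597% of 17590 genes passed. Ppp1r15a encodes GADD34, which brings protein phosphatase 1 to eIF2α and so ends the response. It had 24.5, 29.7 and 25.0 FPKM in mutant IFNα libraries, against 22.6, 19.1 and 17.1 FPKM in wild-type IFNα libraries. The groups did not overlap, and the difference was 1.44-fold (log2 fold change 0.53 ± 0.11 SE, adjusted p = 0.044, edgeR). The margin to the threshold was narrow: the log2 fold change stayed between 0.45 and 0.58 with each library left out in turn, but the adjusted p passed only without wild-type control replicate 1 (0.0442) and reached 0.21 otherwise. In the 8 libraries with lung transcripts, only 1 of them mutant IFNα, the log2 fold change was 0.46 (edgeR).

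Trib3, Chac1 and Ddit3 also separated the groups without passing in edgeR. Trib3 encodes a pseudokinase that binds ATF4 and dampens its activity. It had 76.9, 76.5 and 69.8 FPKM in mutant IFNα libraries, against 61.0, 57.9 and 58.9 FPKM in wild-type IFNα libraries (log2 fold change 0.42 ± 0.11 SE, adjusted p = 0.0938, edgeR). Chac1 encodes an enzyme that degrades glutathione. It had 64.2, 55.8 and 63.9 FPKM in mutant IFNα libraries, against 50.7, 44.9 and 50.0 FPKM in wild-type IFNα libraries (log2 fold change 0.43 ± 0.13 SE, adjusted p = 0.156, edgeR). Ddit3 encodes CHOP, the transcription factor of the pro-apoptotic arm of the response. It had 119, 134 and 106 FPKM in mutant IFNα libraries, against 90.3, 105 and 95.6 FPKM in wild-type IFNα libraries (log2 fold change 0.39 ± 0.13 SE, adjusted p = 0.194, edgeR). In Trib3, Chac1 and Ddit3, every mutant library was above every wild-type library; in Ddit3 the lowest mutant library (106 FPKM) was just above the highest wild-type library (105 FPKM).

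The other 5 members overlapped between mutant and wild-type cells with IFNα, from Psat1 at a log2 fold change of -0.17 ± 0.11 (SE) to Atf4 at 0.17 ± 0.12 (SE). In all, 4 of 9 members had an unadjusted p under 0.05, against 20.7% of the 5409 genes with a mean of at least 5 FPKM. The same 4 of 9 members did not overlap, against 24.7% of the 5409 genes, and 8 of 9 had a positive log2 fold change, against 55.2% of those genes. The median log2 fold change of the 9 members was 0.17, against -0.01 over all genes tested and 0.03 over the 5409 genes. DESeq2 called 3 members here, Ppp1r15a (adjusted p = 0.000251), Trib3 (adjusted p = 0.00391) and Chac1 (adjusted p = 0.0413), and 4.02% of the genes it tested.

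Under the control condition, none of the 9 members differed between mutant and wild-type cells past the threshold in edgeR or DESeq2, where 0.165% and 1.26% of genes passed; 1 member, Ddit3, had an unadjusted p under 0.05 in edgeR, against 14.4% of the genes with at least 5 FPKM. Ddit3 had 192, 164 and 160 FPKM in mutant control libraries, against 151, 135 and 151 FPKM in wild-type control libraries. The groups did not overlap, by a margin smaller than the SD of either (log2 fold change 0.34 ± 0.13 SE, adjusted p = 0.371, edgeR). Ppp1r15a had 16.7, 18.3 and 16.3 FPKM in mutant control libraries, against 14.6, 15.8 and 18.6 FPKM in wild-type control libraries, and these overlapped. Ddit3 was the 1 of 9 members whose groups did not overlap, against 28% of genes with at least 5 FPKM. The median log2 fold change of the 9 members was 0.07, against 0.00 over all genes and 0.00 over those with at least 5 FPKM. Of the 9 members, 6 were positive, against 50% of genes with at least 5 FPKM.

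Within mutant cells, IFNα gave no member past the threshold in edgeR, where 1 gene passed (0.00569%); 4 of the 9 members had an unadjusted p under 0.05, against 15.9% of genes with at least 5 FPKM. Ppp1r15a had 24.5, 29.7 and 25.0 FPKM in mutant IFNα libraries, against 16.7, 18.3 and 16.3 FPKM in mutant control libraries (log2 fold change 0.60 ± 0.11 SE, adjusted p = 0.152, edgeR). Trib3 had 76.9, 76.5 and 69.8 FPKM in mutant IFNα libraries, against 56.2, 58.0 and 56.1 FPKM in mutant control libraries (log2 fold change 0.37 ± 0.11 SE, adjusted p = 0.327, edgeR). Chac1 had 64.2, 55.8 and 63.9 FPKM in mutant IFNα libraries, against 37.5, 48.0 and 46.7 FPKM in mutant control libraries (log2 fold change 0.45 ± 0.13 SE, adjusted p = 0.327, edgeR). In Ppp1r15a, Trib3 and Chac1 every IFNα library was above every control library.

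Ddit3 went the other way in the same mutant cells, with 119, 134 and 106 FPKM in mutant IFNα libraries, against 192, 164 and 160 FPKM in mutant control libraries. All 3 IFNα libraries were below all 3 control libraries (log2 fold change -0.55 ± 0.13 SE, adjusted p = 0.26, edgeR). DESeq2 called Ppp1r15a (adjusted p = 4.32e-05), Ddit3 (adjusted p = 0.00947) and Trib3 (adjusted p = 0.0418), and 0.952% of genes. With only the 8 libraries that hold lung transcripts, the edgeR log2 fold change was -0.71 for Ddit3 and 0.54 for Ppp1r15a. That fit holds 1 mutant IFNα and 1 wild-type control library, assumed to vary like the other groups, so its calls are not given. The groups did not overlap in 4 of 9 members, against 26.9% of genes with at least 5 FPKM. The median log2 fold change of the 9 members was 0.13, against -0.01 over all genes and 0.01 over those with at least 5 FPKM. Of the 9 members, 7 were positive, against 52% of genes with at least 5 FPKM.

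Within wild-type cells, IFNα gave no member past the threshold in edgeR, where 0.0227% of genes passed; Ddit3 and Ppp1r15a, 2 of 9 members, had an unadjusted p under 0.05, against 7.14% of genes with at least 5 FPKM. Ddit3 had 90.3, 105 and 95.6 FPKM in wild-type IFNα libraries, against 151, 135 and 151 FPKM in wild-type control libraries (log2 fold change -0.60 ± 0.13 SE, adjusted p = 0.284, edgeR). All 3 IFNα libraries were below all 3 control libraries, and DESeq2 called Ddit3 here (log2 fold change -0.61, adjusted p = 0.00241), with 0.387% of genes. Ppp1r15a had 22.6, 19.1 and 17.1 FPKM in wild-type IFNα libraries, against 14.6, 15.8 and 18.6 FPKM in wild-type control libraries, and these overlapped (log2 fold change 0.25 ± 0.11 SE, adjusted p = 0.901, edgeR). Trib3 and Chac1 had log2 fold changes of 0.10 ± 0.11 and 0.05 ± 0.13 (SE). Ddit3 was the 1 of 9 members whose groups did not overlap, against 10.6% of genes with at least 5 FPKM. The median log2 fold change of the 9 members was 0.07, against 0.02 over all genes and -0.003 over those with at least 5 FPKM. Of the 9 members, 6 were positive, against 49.1% of genes with at least 5 FPKM.

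**Figure D2:**
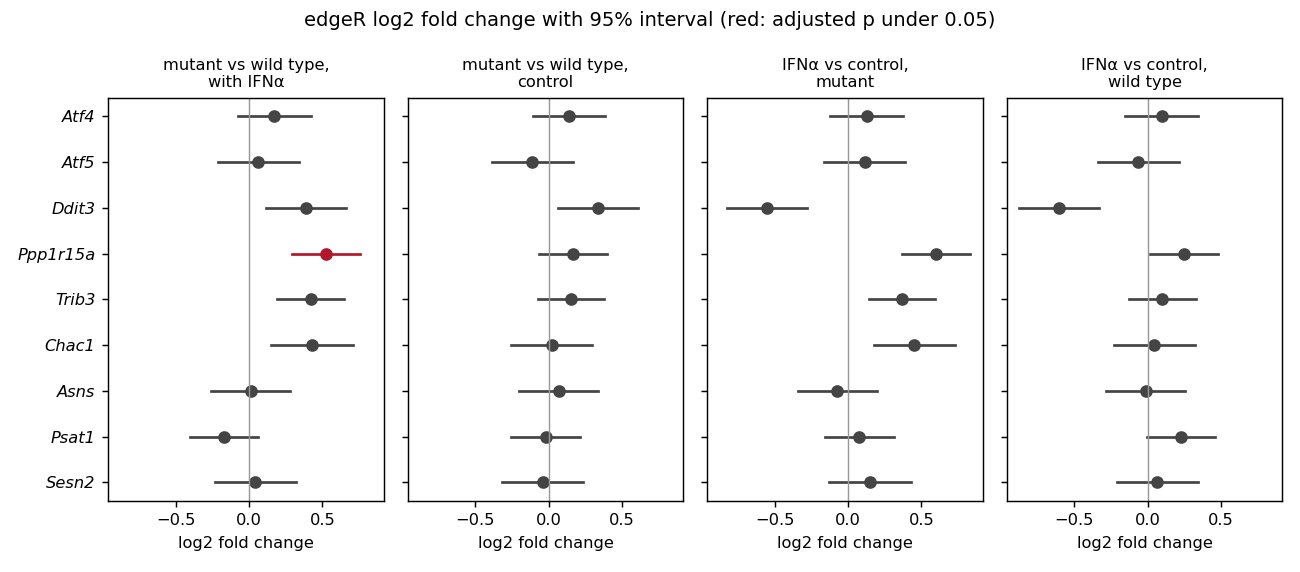
Log2 fold change of 9 members (points) with its 95% interval (lines) in 4 comparisons; red marks an adjusted p under 0.05 in edgeR. Ppp1r15a with IFNα (0.53) is the 1 red point, and Ddit3 lies below 0 in both comparisons of IFNα with control (-0.55 in mutant and -0.60 in wild-type cells).

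Whether IFNα acted differently in the 2 IRF7 forms was tested as the interaction, the log2 change with IFNα in mutant cells minus that in wild-type cells. No member and none of the 17590 genes passed in edgeR, and DESeq2 called 0 members and 0.0604% of genes. Ppp1r15a (0.36 ± 0.15 SE, unadjusted p = 0.0351, adjusted p = 0.916, edgeR) and Chac1 (0.41 ± 0.18 SE, unadjusted p = 0.0425, adjusted p = 0.916, edgeR) were the 2 of 9 members with an unadjusted p under 0.05, against 6.56% of genes with at least 5 FPKM; 7 of 9 members were positive, against 53.2% of those genes. The value of Ddit3 was 0.05 ± 0.18 (SE), with a 95% interval from -0.34 to 0.43. The comparisons above share libraries, so each one's values stand side by side and not as independent evidence.

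Ddit3 and the other 3 genes were also set against each other within each library, a measure that no scaling between libraries can move; it was chosen after the values were seen and carries no test. Ddit3 over Ppp1r15a was 4.22 to 4.87 in mutant IFNα libraries, against 8.99 to 11.5 in mutant control libraries. Ddit3 over Ppp1r15a was 4.001 to 5.58 in wild-type IFNα libraries, against 8.13 to 10.4 in wild-type control libraries. In both IRF7 forms the highest IFNα library lay below the lowest control library. Ddit3 over Trib3 was 1.51 to 1.75 in mutant IFNα libraries, against 2.83 to 3.42 in mutant control libraries, and 1.48 to 1.80 in wild-type IFNα libraries, against 2.26 to 3.26 in wild-type control libraries. Ddit3 over Chac1 likewise separated the 2 treatments within each IRF7 form.

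**Figure D3:**
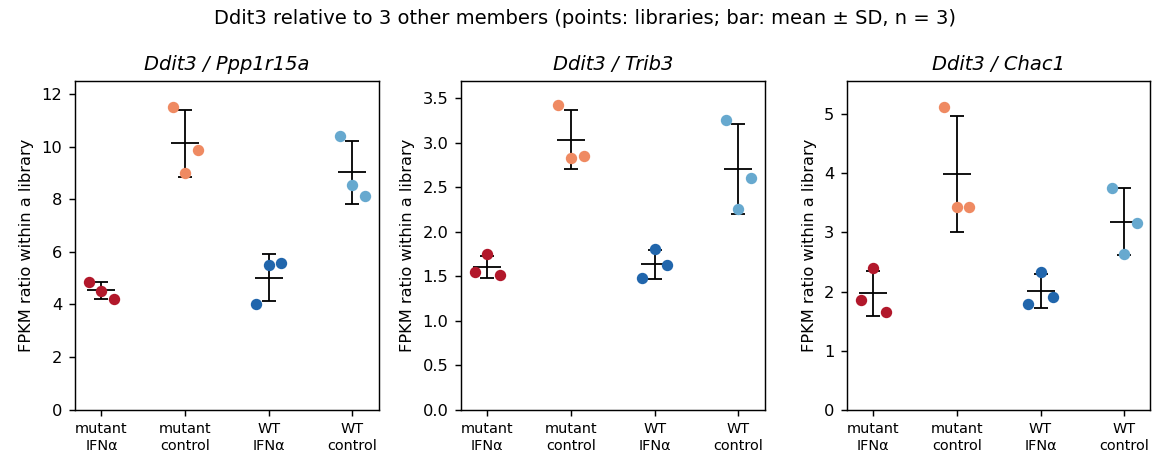
Ratio of Ddit3 FPKM to Ppp1r15a, Trib3 and Chac1 FPKM within each library (vertical axes start at 0); points are libraries and the bar is the mean ± SD (n = 3). Ddit3 over Ppp1r15a averages 4.53 in mutant IFNα against 10.1 in mutant control libraries, and 5.02 in wild-type IFNα against 9.02 in wild-type control libraries.

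The members for amino acid synthesis and nutrient sensing did not separate the groups in any of the 4 comparisons. Asns, asparagine synthetase, had 95.1, 97.4 and 85.0 FPKM in mutant IFNα, 110, 90.3 and 86.4 FPKM in mutant control, 123, 89.2 and 83.6 FPKM in wild-type IFNα, and 95.1, 88.6 and 110 FPKM in wild-type control libraries. These values overlapped in every comparison. Psat1, an aminotransferase of serine synthesis, had 52.6, 64.0 and 50.1 FPKM in mutant IFNα, 54.0, 54.3 and 46.9 FPKM in mutant control, 73.7, 63.6 and 63.1 FPKM in wild-type IFNα, and 54.0, 51.4 and 63.9 FPKM in wild-type control libraries. Its largest log2 fold change was 0.23 ± 0.11 (SE) with IFNα in wild-type cells (adjusted p = 0.923, edgeR). Sesn2, a leucine sensor upstream of mTORC1, and Atf5, a transcription factor whose mRNA also carries upstream reading frames, ranged from 8.94 to 13.1 FPKM and from 82.4 to 114 FPKM over the 12 libraries and overlapped in every comparison. Atf4 itself had 151, 188 and 135 FPKM in mutant IFNα, 149, 140 and 137 FPKM in mutant control, 168, 147 and 134 FPKM in wild-type IFNα, and 130, 130 and 155 FPKM in wild-type control libraries. Its log2 fold change lay between 0.10 and 0.17 in the 4 comparisons, with SE of 0.12, and missing the threshold does not show that the level was equal.

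3 members overlap a gene on the opposite strand in the deposited coordinates, and whether counting used the strand is not given, so their reads cannot be told apart. Ppp1r15a overlaps Tulp2, which had 5992 counts in all, against 51337 of Ppp1r15a. Tulp2 had a log2 fold change of -0.27 ± 0.24 (SE) in mutant against wild-type cells with IFNα, opposite in sign to Ppp1r15a. Ddit3 overlaps Mars1, with 52023 counts in all against 199393 of Ddit3. Mars1 had log2 fold changes of 0.18 ± 0.15 and 0.02 ± 0.15 (SE) in mutant and wild-type cells with IFNα against control. Atf5 overlaps Nup62, with 115206 counts against 165080 of Atf5. Nup62 had log2 fold changes of 0.26 ± 0.12 and 0.10 ± 0.12 (SE) in mutant and wild-type cells with IFNα against control. The part of the overlapping genes in the results was not tested.

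Other genes of the pathway were described by lists, with values from edgeR only. None of them passed in any of the 5 comparisons, at 0 of 96 gene entries tested over 6 lists. In these comparisons 0% to 0.597% of all 17590 genes passed in edgeR, and 0 of 96 is near those shares. The list of 18 other stress genes tied to ATF4 was chosen with earlier results of these data known. Its counts are therefore a description and not independent support. Some of its genes had wide errors, such as Stc2 (SE 1.41) and Fgf21 (SE 0.71) in mutant against wild-type cells with IFNα. In that comparison 17 of the 18 genes had a positive log2 fold change. Their median was 0.30, against -0.01 over all genes and 0.03 over genes with at least 5 FPKM. A positive log2 fold change was found in 48.5% of all genes tested and in 55.2% of genes with at least 5 FPKM. In the same comparison 7 of the 18 had an unadjusted p under 0.05 in edgeR, all higher in the mutant. In either direction the share was 13.7% of all genes tested and 20.7% of genes with at least 5 FPKM. Jdp2, a repressor of AP-1 activity, had 14.7, 16.2 and 23.1 FPKM in mutant IFNα libraries, against 13.4, 12.4 and 10.9 FPKM in wild-type IFNα libraries (log2 fold change 0.66 ± 0.15 SE, adjusted p = 0.0698, edgeR). Atf3, a stress-induced transcription factor, had 31.5, 37.9 and 32.0 FPKM in mutant IFNα libraries, against 29.1, 27.2 and 26.0 FPKM in wild-type IFNα libraries (log2 fold change 0.39 ± 0.10 SE, adjusted p = 0.0956, edgeR). In both genes all mutant libraries were above all wild-type libraries. Under the control condition 14 of the 18 were positive, against 50% of genes with at least 5 FPKM. The median of the 18 was 0.22, against 0.00 over all genes. The smallest p belonged to Atf3 (log2 fold change 0.36 ± 0.10 SE) and Gdf15, a secreted stress cytokine (0.86 ± 0.29 SE). With IFNα against control, Bbc3, which encodes the BH3-only protein PUMA, and Atf3 had the smallest p in mutant cells (0.56 ± 0.16 and 0.34 ± 0.10 SE), and Atf3 and Cebpg, a C/EBP family partner, in wild-type cells (0.31 ± 0.10 and 0.28 ± 0.14 SE).

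Of 13 genes for serine, one-carbon and proline synthesis, Psph, the last enzyme of serine synthesis, came nearest to the threshold, with 54.3, 62.2 and 74.5 FPKM in mutant IFNα libraries, against 45.8, 45.6 and 43.0 FPKM in wild-type IFNα libraries (log2 fold change 0.60 ± 0.13 SE, adjusted p = 0.0506, edgeR). The mutant libraries were all above the wild-type ones, while the list's median was 0.01. Phgdh, its first enzyme, followed (0.36 ± 0.11 SE). Under the control condition Mthfd1l, a mitochondrial one-carbon enzyme, had -0.43 ± 0.12 (SE) and Psph 0.34 ± 0.13 (SE). With IFNα against control, Aldh18a1 and Shmt1 had the smallest p in mutant cells (0.30 ± 0.12 and 0.33 ± 0.14 SE) and in wild-type cells (0.21 ± 0.12 and 0.25 ± 0.14 SE).

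Of the 10 amino acid transporters, 9 passed the low-count filter and were tested. With IFNα in mutant cells 8 of the 9 were positive, against 52% of genes with at least 5 FPKM. The median there was 0.37, against -0.01 over all genes. In wild-type cells 8 were positive, against 49.1% of genes with at least 5 FPKM, with a median of 0.19, against 0.02 over all genes. Slc7a1, a cationic amino acid transporter, had 0.45 ± 0.15 (SE) in mutant and 0.41 ± 0.15 (SE) in wild-type cells, and Slc6a9, a glycine transporter, 0.40 ± 0.13 (SE) in mutant cells. In mutant against wild-type cells with IFNα the transporters' median was -0.03, with Slc43a1 at 1.25 ± 0.49 (SE) and Slc7a1 at -0.27 ± 0.15 (SE). Slc43a1 was low in level, with means of 0.18 FPKM in mutant IFNα and 0.08 FPKM in wild-type IFNα libraries. Under the control condition Slc38a2 had -0.32 ± 0.14 and Slc7a1 -0.30 ± 0.15 (SE), and with IFNα in wild-type cells Slc1a4 had 0.29 ± 0.15 (SE).

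The 18 genes of the eIF2 kinases and eIF2 regulation had a median of -0.18 in mutant against wild-type cells with IFNα. The median was -0.01 over all genes tested and 0.03 over genes with at least 5 FPKM. Of the 18, 13 were negative, while 55.2% of genes with at least 5 FPKM were positive. An unadjusted p under 0.05 in edgeR was found for 5 of the 18, against 20.7% of genes with at least 5 FPKM. Eif2b5, a subunit of the eIF2B exchange factor, had 0.42 ± 0.10 (SE) and Dnajc3, an inhibitor of eIF2 kinases, -0.50 ± 0.14 (SE); under the control condition they had 0.22 ± 0.10 and -0.34 ± 0.14 (SE). With IFNα against control, Dele1, which relays mitochondrial stress, had 0.43 ± 0.17 and Eif2s3x -0.20 ± 0.13 (SE) in mutant cells, and Eif2b2 -0.31 ± 0.10 and Eif2b4 -0.28 ± 0.11 (SE) in wild-type cells. The kinases Eif2ak1, Eif2ak2, Eif2ak3 and Eif2ak4 did not pass in any comparison. The 20 cytosolic aminoacyl-tRNA synthetases had medians between -0.08 and 0.00 in the 4 comparisons and the interaction, with Farsa at 0.41 ± 0.11 (SE) and Eprs at -0.38 ± 0.14 (SE) in mutant against wild-type cells with IFNα, and Aars at -0.22 ± 0.11 and Mars1 at -0.31 ± 0.15 (SE) under the control condition. With IFNα against control, Sars had -0.27 ± 0.11 and Aars 0.23 ± 0.11 (SE) in mutant cells, and Sars -0.24 ± 0.11 and Farsa -0.23 ± 0.11 (SE) in wild-type cells. The 18 genes of the XBP1 and ATF6 arm of the unfolded protein response, a branch beside that of ATF4, had a median of -0.20 in mutant against wild-type cells with IFNα and -0.14 under the control condition. Over all genes tested these medians were -0.01 and 0.00. Of the 18, 13 were negative with IFNα and 15 under the control condition. Of genes with at least 5 FPKM, 55.2% and 50% were positive there. Pdia4, a protein disulfide isomerase of the endoplasmic reticulum, had -0.43 ± 0.13 and Sdf2l1 0.29 ± 0.11 (SE) with IFNα, and Ern1, the stress sensor IRE1α, -0.43 ± 0.16 and Edem1 -0.43 ± 0.17 (SE) under the control condition. With IFNα against control, Syvn1 had 0.43 ± 0.15 and Xbp1 0.22 ± 0.10 (SE) in mutant cells, and Ern1 -0.26 ± 0.15 and Pdia4 0.21 ± 0.13 (SE) in wild-type cells.

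In the interaction the smallest p values of each list belonged to Farsa (0.43 ± 0.15 SE, unadjusted p = 0.0137), Xbp1 (0.34 ± 0.14 SE) and Eif2b4 (0.35 ± 0.16 SE), followed by Pdia4 (-0.37 ± 0.18 SE), Pycr1 (0.37 ± 0.19 SE), Jdp2 (0.40 ± 0.21 SE), Herpud1 (0.28 ± 0.15 SE), Eif2s3x (-0.31 ± 0.18 SE), Shmt2 (0.32 ± 0.20 SE), Aars (0.22 ± 0.15 SE), Slc43a1 (0.94 ± 0.70 SE) and Slc6a9 (0.21 ± 0.19 SE). None of these had an adjusted p under 0.916 in edgeR, and Slc43a1 averaged only 0.08 to 0.18 FPKM over the groups.

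**Figure D4:**
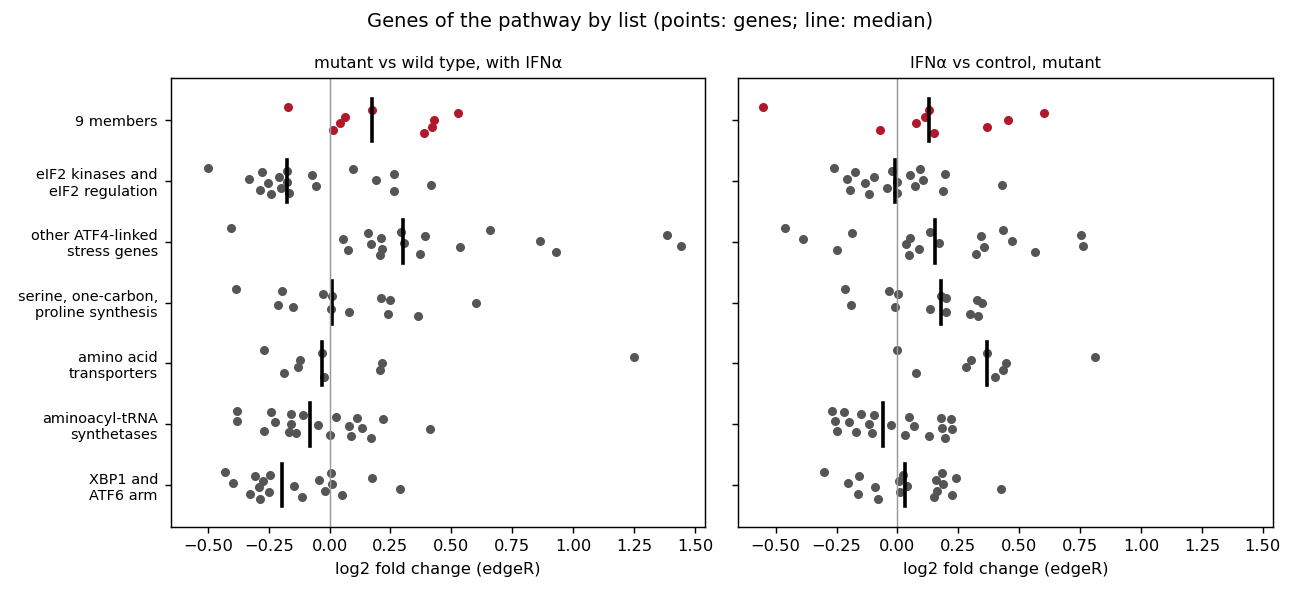
Log2 fold change (horizontal axis) of each gene in 7 lists (rows; points are genes and the black line is the median) for mutant against wild-type cells with IFNα (left) and IFNα against control in mutant cells (right). The median of the other stress genes tied to ATF4 is 0.30 on the left, and that of the amino acid transporters is 0.37 on the right.

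The genes most like a member over the 12 libraries were sought by root mean square distance of log2 CPM, centred per gene, among 5400 genes with at least 5 FPKM. By the rule the member was Vldlr, whose near-zero counts left distances of 1.28 and more, so Ddit3 and Ppp1r15a, next in the span of their group means (0.94 and 0.77 on the log2 CPM scale), were used after the values were seen. Nearest to Ddit3 were Leng1, Psme1, Lgals3, Tcta and 1 gene with no symbol, at distances of 0.14 to 0.16. Nearest to Ppp1r15a were Tor3a, Srrd, Gtpbp2, Atf3 and Nmral1, at 0.11. Psme1, a proteasome activator subunit, averaged 82.6 FPKM in mutant IFNα and 102 FPKM in mutant control, and 66.2 FPKM in wild-type IFNα and 89.7 FPKM in wild-type control libraries. Ddit3 averaged 119 ± 14.1 and 172 ± 17.4 FPKM in mutant IFNα and mutant control, and 96.8 ± 7.17 and 146 ± 9.43 FPKM in wild-type IFNα and wild-type control libraries (SD, n = 3 each).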

How the data were processed

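Counts and FPKM per gene and library were used as deposited by the authors, in 1 table. The submitters' processing notes name the build GRCm38, the aligner HISAT2 2.0.4, the assembler StringTie 1.3.4d, the trimmer cutadapt 1.9, and UMI-tools, edgeR and DESeq2; the counting method, use of strand and removal of duplicates were not given in the sources used here. RNA was selected by oligo(dT), and libraries were dUTP-marked and paired-end with unique molecular identifiers, per the labels' protocols. The deposited count values hold more multiples of 4 than whole numbers would (33.6% of values from 1 to 30, against 23.3%), so a count may not stand for 1 fragment. Deposited gene starts equal those of GENCODE M21 on GRCm38 for 2.0% of shared genes, so deposited coordinates and the GRCm38.p6 promoter windows are not comparable. Depth was 60511573 to 75927461 counts per library.

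The deposited counts were tested with edgeR 4.0.16 (R 4.3.3; quasi-likelihood test, TMM scaling, filterByExpr, 17590 genes, 4 group means in 1 fit, common biological coefficient of variation 28.9%), two-sided, with Benjamini-Hochberg adjustment over all genes and a threshold of 0.05. Scripts were tested on simulated data. Alternatives were DESeq2 1.42.0, DESeq2 size factors, library totals, no filter, limma 3.58.1 on log2(FPKM + 1) or log2(FPKM + 0.1) (at least 1 FPKM in 3 libraries, or no filter), a term for lung transcripts (summed lung markers of at least 5 CPM), only the libraries with lung transcripts, a replicate block, and each library left out in turn. Of 2 rows named Ddit3, the 1 with nearly all counts was used. The members and lists were chosen with earlier results of these data known. All members were named, and of each list the genes past the threshold and the 2 with the smallest p in each comparison; ratios, and the genes near Ddit3 and Ppp1r15a, were chosen after their values were seen.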

Additional observations from a re-analysis of the deposited data

How the results depend on the processing

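Of 45 values (9 members in 5 comparisons), 25 kept their sign under all 22 alternatives; the 20 that turned were at most 0.17 in size with an unadjusted p of at least 0.158. In mutant against wild-type cells with IFNα, edgeR called 1 member and 105 of all genes, while DESeq2 called 3 members and 632 genes. The number of members was 1 in edgeR with DESeq2 size factors (Ppp1r15a, adjusted p = 0.0367, edgeR). It was 0 with library totals, without a filter on low counts and under all 3 limma settings. It was also 0 with the replicate block and with the lung transcript term, and 0 to 1 with each library left out in turn. For IFNα against control, DESeq2 called 1 member in wild-type and 3 in mutant cells, against 0 in edgeR for each. There DESeq2 called 69 and 175 of all genes, against 4 and 1 in edgeR. The fit on lung transcript libraries alone is left out of these counts, as it held 1 mutant IFNα and 1 wild-type control library. Ppp1r15a in mutant against wild-type cells with IFNα had a log2 fold change of 0.44 with library totals and 0.52 with the replicate block (adjusted p = 0.191 and 0.0786, edgeR). Deviations from the group mean correlated at -0.31 to 0.14 (median 0.03) between same-numbered libraries of different groups. Between differently numbered ones they correlated at -0.29 to 0.48 (median 0.02), highest for wild-type IFNα 1 with wild-type control 3. Of 12 libraries, 5 correlated best with their own number. These values do not settle whether the numbers pair libraries. Log2 fold changes near 0 turned sign. Chac1 in mutant against wild-type cells under the control condition was -0.0723 with library totals, -0.0773 with limma on log2(FPKM + 1) with or without the filter, -0.0788 on log2(FPKM + 0.1) and -0.0453 to 0.128 with a library left out; with IFNα in wild-type cells it was -0.0205 to 0.152 with a library left out. In the libraries with lung transcripts Atf4 was -0.0404 in mutant against wild-type cells with IFNα, -0.0812 with IFNα in mutant cells and -0.20 in the interaction. The interaction of Atf4 was -0.19 with the lung transcript term and -0.0938 to 0.126 with a library left out, and that of Ddit3 was -0.0272 to 0.154. The median of all genes moved by over 0.1 in 2 comparisons with log2(FPKM + 0.1) and 1 with only the lung transcript libraries, to -0.11 in each. The causes were not tested. Depth limited Vldlr, at 0 to 23 counts per library.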
